A study of Mus musculus with 47 samples.

Results

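The 8 genes described here encode the receptors and ligands by which a phagocyte recognises and takes up shed photoreceptor outer segments: the receptor tyrosine kinases Mertk, Tyro3 and Axl, the bridging ligands Gas6, Pros1 and Mfge8, and the integrin subunits Itgb5 and Itgav. They were listed by name, and their symbols were matched to the Ensembl identifiers of the deposited table. All 8 of 8 were found among its 57180 genes, and all 8 were among the 15321 genes with at least 0.5 RPKM (reads scaled to exon length and to library size) in at least 12 libraries, the genes that were tested. The study measured polyadenylated RNA in the right-eye retina of C57BL/6 mice kept in 12 h of light and 12 h of darkness. The young group was 6 weeks old and the aged group 20 months old. No allele, transgene or drug was named for either group. Mice were taken every 4 h at zeitgeber time (ZT, hours after lights on) 2, 6 and 10 in the light and 14, 18 and 22 in the dark, with 4 mice per age and time and 1 library per mouse. Aged ZT18 had 3 libraries, so that 24 young and 23 aged libraries were analysed.

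Photoreceptors renew their outer segments by adding membrane at the base and shedding the tip, and the retinal pigment epithelium (RPE), the cell layer behind the photoreceptors, engulfs the shed tips in a burst soon after lights on. Phosphatidylserine exposed on the tips is bridged to the phagocyte by secreted proteins. Mfge8 carries an integrin-binding motif and is a ligand of the integrin αvβ5, the product of Itgav and Itgb5, which tethers the tips and sets the daily timing of uptake. Gas6 and Pros1 bind the receptor tyrosine kinases Tyro3, Axl and Mertk, called the TAM family, of which Mertk triggers engulfment in the RPE. The same receptors and ligands are used by microglia, Müller glia and endothelium, so in a dissected retina their RNA comes from several cell types, and in such bulk tissue fewer cells of a type and less RNA per cell cannot be told apart.

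Library totals recovered from the values ran from 32.04 to 55.5 M (mega) reads, and the young and aged medians were 37.2 M and 37.0 M. The summed level of 8 rod genes had a median of 17370 RPKM in young and 16629 RPKM in aged libraries. The 15 RPE genes were all in the table, and 3 of them (Best1, Mlana and Slc45a2) were listed at 0 in at least 1 library. Their summed level ran from 8.17 to 107 RPKM in young and from 9.63 to 194 RPKM in aged libraries. It was higher in the dark, with medians of 46.4 RPKM against 17.1 RPKM in the light in young retinas and 69.0 RPKM against 21.6 RPKM in aged retinas. Of the 10 RPE genes tested, 6 were rhythmic in young and 5 in aged retinas, and 1 was higher with age. Their part in the results on the 8 genes was tested only by taking their mean level as a covariate. Young ZT10 replicate 4 and aged ZT6 replicate 3 stood apart, with median distances from their group medians of 0.624 and 0.428 on the log2 scale against at most 0.174 in the other 45. Of the 8 genes, 7 were lowest of their group in the first of these libraries and 5 in the second, so the age, single-time and rhythm values that moved with these libraries are given with and without them.

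The secreted ligands Mfge8 and Gas6 stood far above the receptors, while the mean of the ligand Pros1 lay below those of Tyro3 and Axl. Mean levels over the 47 libraries were 103 RPKM for Mfge8, 93.6 RPKM for Gas6, 10.9 RPKM for Itgb5, 4.42 RPKM for Tyro3, 2.76 RPKM for Itgav, 2.54 RPKM for Axl, 1.53 RPKM for Pros1 and 0.706 RPKM for Mertk. RPKM are scaled to exon length, so large gaps between genes can be compared. Close orders also depend on the exon length taken for each gene, and this was not tested. Gas6 exceeded Itgb5, and Itgb5 exceeded Tyro3, in 47 of 47 libraries. Mfge8 exceeded Gas6 in 40 of 47 libraries, in 17 of the 24 young and in 23 of the 23 aged. Itgav and Axl could not be ordered, since Itgav was the higher in 27 of 47 libraries. Tyro3 exceeded Itgav, and Axl exceeded Pros1, each in 44 of 47 libraries. Mertk was below Pros1 in 46 of 47 libraries.

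The precision differed widely among these genes. Mertk rested on 6 to 221 reads per library, with a median of 113, and Pros1 on 52 to 403. Axl had a median of 483 reads, Tyro3 1019, Itgav 1156 and Itgb5 1459. Gas6 and Mfge8 had medians of 9171 and 17759 reads. Mertk and Pros1 thus rest on the fewest reads.

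**Figure D1:**
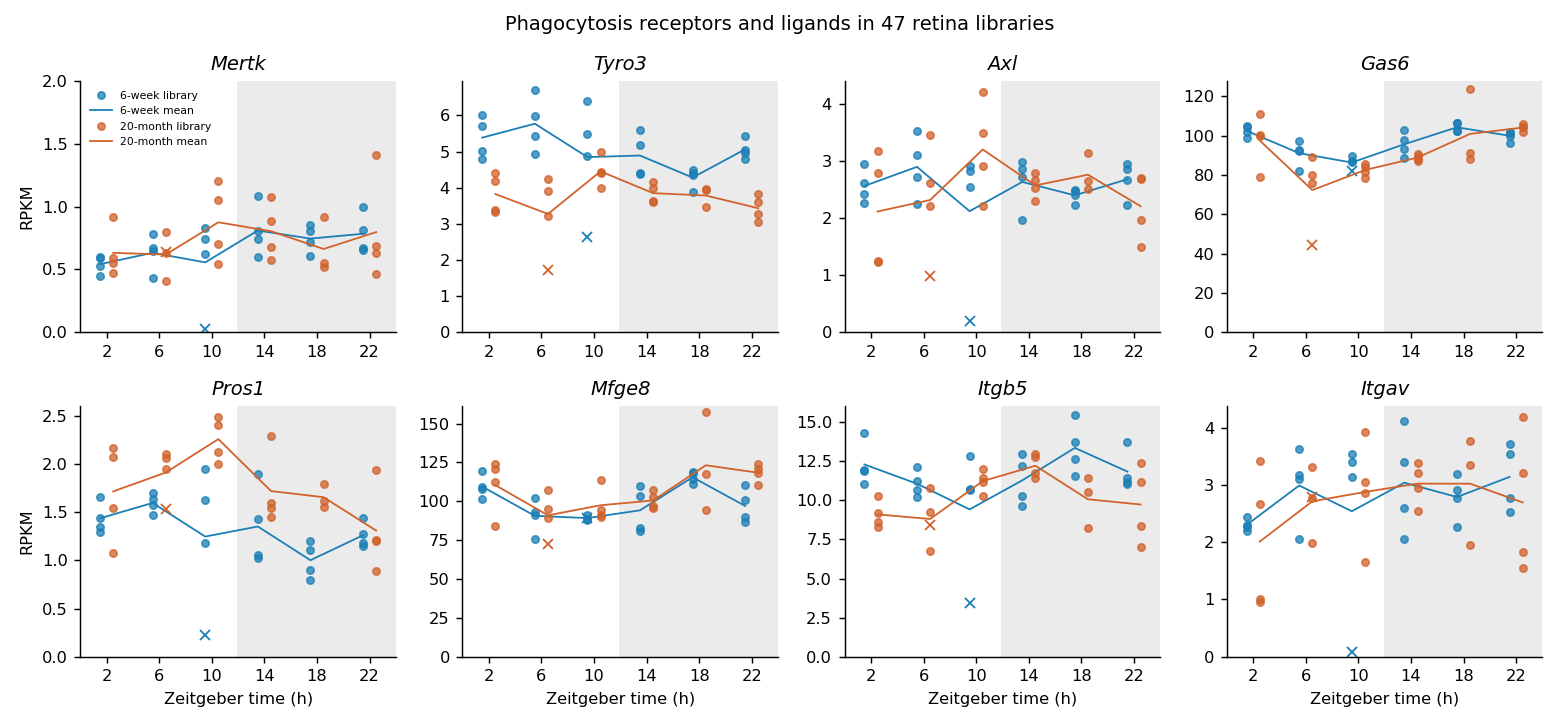
Levels of the 8 genes in 47 retina libraries: x axis, zeitgeber time in h; y axis, RPKM on a scale of its own for each gene; points, libraries; lines, group means; crosses, the 2 libraries that stood apart; grey, darkness. Tyro3 lies lower in aged libraries, with an aged median of 3.90 RPKM against 5.0 RPKM in young, and Pros1 higher, with 1.79 RPKM against 1.32 RPKM.

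Among the TAM receptors, Tyro3, the member best known from neurons, was the most abundant in every library, and Mertk, the engulfment receptor of the RPE, the least. As a share of the summed RPKM of the 3 receptors, Tyro3 made up 61.7% ± 7.36 (SD, n = 24) in young and 54.2% ± 6.01 (SD, n = 23) in aged retinas. The medians of the Tyro3 share were 60.6% and 51.7%, and its highest young value, 92.0%, was that of young ZT10 replicate 4. Mean shares without the 2 libraries that stood apart were not computed. Axl, a receptor known from endothelium and reactive glia, made up 30.2% ± 5.71 in young and 35.2% ± 5.41 in aged retinas. Mertk made up 8.06% ± 2.47 and 10.6% ± 3.34. The shares were not tested between ages, and they sum to a fixed total, so a lower share of 1 receptor raises the others.

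Of the receptors, Tyro3 alone passed the test for age. Its level in young libraries ran from 2.64 RPKM through a median of 5.0 to 6.71 RPKM, and in aged libraries from 1.73 RPKM through a median of 3.90 to 4.98 RPKM. The ages overlapped in range, but 23 of 23 aged libraries lay below the young median. The 24 young libraries had a mean of 5.04 RPKM (SD 0.861) and the 23 aged libraries one of 3.77 RPKM (SD 0.647). On the log2(RPKM + 0.5) scale, which understates changes of low genes, Tyro3 fell by 0.38 ± 0.07 (SE) with age, lower at 6 of 6 times (limma, Benjamini-Hochberg adjusted p = 0.000499 over all genes tested). Without the 2 libraries that stood apart it fell by 0.38 ± 0.04 (adjusted p = 1.4e-08). Its fall was 1.30-fold, and no gene of the 8 passed the study's fold threshold of 1.5, which 0.49% of all genes passed together with the adjusted p.

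Among the ligands, Pros1, which encodes protein S, a bridging ligand of the TAM receptors and a cofactor in the control of blood clotting, rose with age. Young libraries ran from 0.229 RPKM through a median of 1.32 to 1.95 RPKM, and aged libraries from 0.890 RPKM through 1.79 to 2.49 RPKM. Of the 23 aged libraries, 19 lay above the young median and 9 above the highest young library. The 24 young libraries had a mean of 1.31 RPKM (SD 0.376) and the 23 aged libraries one of 1.76 RPKM (SD 0.433). Pros1 rose by 0.32 ± 0.09 (SE) on the log2 scale, higher at 6 of 6 times (limma adjusted p = 0.0311). The call was lost without aged ZT14 replicate 4 (adjusted p = 0.0509), with the RPE level as a covariate (0.28 ± 0.10, adjusted p = 0.137), with a pseudocount of 0.1 (adjusted p = 0.0549) and with no filter on low genes (adjusted p = 0.0651), while without the 2 libraries that stood apart the rise was 0.27 ± 0.07 (adjusted p = 0.0039).

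With these, 2 of the 8 genes passed the age test at a threshold of 0.05 on the adjusted p. Of all genes tested 4.24% passed, 2.41% higher and 1.83% lower. The median age difference was -0.02 on the log2 scale over the 8 genes and -0.02 over all genes. Gas6, the main TAM ligand of the retina by level, ran from 82.1 RPKM through a median of 98.2 to 106 RPKM in young libraries. In aged libraries it ran from 44.2 RPKM through 89.0 to 124 RPKM, and 6 aged libraries lay below the lowest young one. Its difference with age of -0.11 ± 0.05 (SE) on the log2 scale did not pass the test (limma adjusted p = 0.286). It passed with array weights, which give less weight to libraries far from the fit (-0.09 ± 0.03, adjusted p = 0.0264). In that setting 15.6% of all genes were called for age. Mfge8 ran from 75.9 RPKM through 101 to 119 RPKM in young and from 72.4 RPKM through 107 to 157 RPKM in aged libraries, with a difference of 0.10 ± 0.05 that did not pass (adjusted p = 0.357). The differences without the 2 libraries that stood apart were -0.07 ± 0.03 for Gas6 and 0.12 ± 0.05 for Mfge8, and neither passed (adjusted p = 0.125 and 0.0982). Both ligands thus overlapped between ages over most of their range.

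Itgb5, the β5 subunit that pairs with αv in the tethering integrin, ran from 3.46 RPKM through a median of 11.5 to 15.4 RPKM in young and from 6.78 RPKM through 10.5 to 13.0 RPKM in aged libraries. Its lowest young value, 3.46 RPKM, came from young ZT10 replicate 4, and the next lowest young library had 9.64 RPKM. With all libraries the age difference was -0.15 ± 0.09 (SE) on the log2 scale and did not pass (limma adjusted p = 0.462). Without the 2 libraries that stood apart it fell by 0.22 ± 0.06 (adjusted p = 0.0112), and without young ZT10 replicate 4 alone by 0.22 ± 0.06 (adjusted p = 0.0118). In the first of these settings 3 of the 8 genes and 16.5% of all genes were called for age.

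In the remaining 3 genes the ranges of the ages over all times overlapped. Mertk ran from 0.0249 RPKM through a median of 0.670 to 1.09 RPKM in young and from 0.405 RPKM through 0.641 to 1.41 RPKM in aged libraries, with a difference of 0.07 ± 0.09 (SE) on the log2 scale (limma adjusted p = 0.798). Axl ran from 0.204 RPKM through 2.65 to 3.54 RPKM in young and from 0.988 RPKM through 2.65 to 4.21 RPKM in aged libraries, with a difference of -0.01 ± 0.13 (adjusted p = 0.983). Itgav, the αv subunit shared by several integrins, ran from 0.0805 RPKM through 2.85 to 4.11 RPKM in young and from 0.958 RPKM through 2.86 to 4.18 RPKM in aged libraries, with a difference of -0.02 ± 0.15 (adjusted p = 0.968). With all libraries these differences were smaller than their errors, and those of Axl and Itgav changed sign under other settings and that of Mertk with the RPE level as a covariate. The difference without the 2 libraries that stood apart was -0.14 ± 0.10 for Itgav, -0.06 ± 0.08 for Axl and 0.01 ± 0.07 for Mertk, and none passed (adjusted p = 0.355, 0.593 and 0.929).

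**Figure D2:**
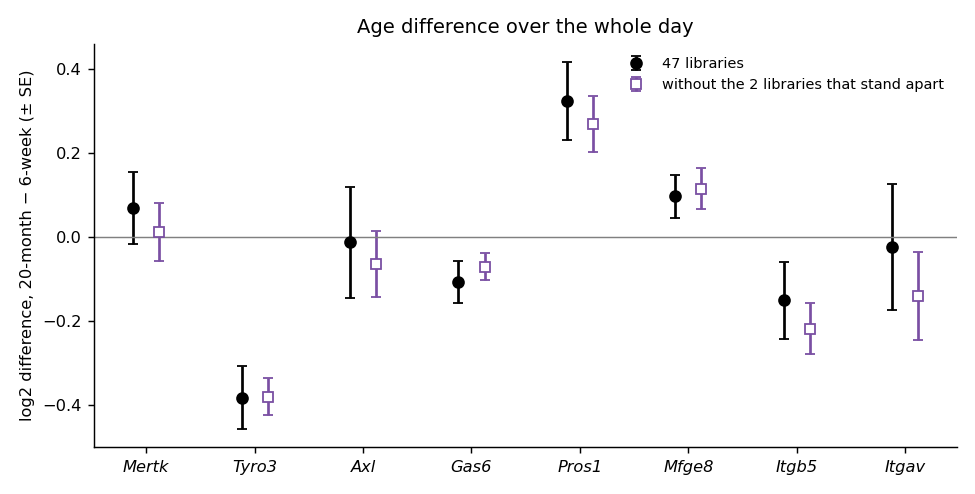
Age difference of each gene over the whole day: y axis, log2(RPKM + 0.5) of 20-month minus 6-week retinas; points, estimates with all 47 libraries (filled) and without the 2 that stood apart (open); bars, SE. Tyro3 lies at -0.38 and Pros1 at 0.32, and Itgb5 moves from -0.15 to -0.22 without the 2 libraries.

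The age difference was next read at each time. Of 48 pairs of a gene and a time, 1 was called (limma, Benjamini-Hochberg over all genes within each time). This was Tyro3 at ZT6, with 4.94, 5.44, 6.00 and 6.71 RPKM in young and 1.73, 3.22, 3.90 and 4.24 RPKM in aged retinas. The ages did not overlap at ZT6, and Tyro3 fell by 0.78 ± 0.17 (SE) on the log2 scale (adjusted p = 0.00601). At that time 3.12% of all genes were called and the ages of 7.73% did not overlap. The lowest aged value came from aged ZT6 replicate 3, and without that library 0 of 48 pairs were called. Without both libraries that stood apart 3 were called, all of Tyro3, which fell by 0.45 ± 0.10 at ZT2 (adjusted p = 0.0146), by 0.55 ± 0.10 at ZT6 (0.0024) and by 0.50 ± 0.10 at ZT22 (0.0045), where 0.751%, 1.38% and 0.757% of all genes were called.

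The ages of Tyro3 also did not overlap at ZT2, ZT14 and ZT22. At ZT2 Tyro3 had 4.79, 5.03, 5.72 and 6.00 RPKM in young and 3.34, 3.38, 4.19 and 4.39 RPKM in aged retinas. At ZT22 it had 4.80, 4.97, 5.05 and 5.43 RPKM against 3.04, 3.27, 3.59 and 3.82 RPKM. With all libraries neither time passed the test (adjusted p = 0.76 and 0.546), where 0.144% and 0.17% of all genes were called, nor did ZT14 (adjusted p = 0.972, with 0.248% of all genes called). At ZT10 the difference was -0.06 ± 0.17 (SE), with 2.64, 4.87, 5.49 and 6.40 RPKM in young and 4.00, 4.40, 4.44 and 4.98 RPKM in aged libraries. The lowest of these, 2.64 RPKM, was young ZT10 replicate 4, and without the 2 libraries that stood apart the ZT10 difference was -0.29 ± 0.10 (adjusted p = 0.352).

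The ages of Pros1 did not overlap at ZT10 and ZT18. At ZT10 Pros1 had 0.229, 1.18, 1.63 and 1.95 RPKM in young and 2.00, 2.13, 2.41 and 2.49 RPKM in aged retinas, a difference of 0.79 ± 0.21 (SE) on the log2 scale that did not pass the test (limma adjusted p = 0.0946, with 0.496% of all genes called). The value of 0.229 RPKM was young ZT10 replicate 4, and without the 2 libraries that stood apart the ZT10 difference was 0.42 ± 0.16 (adjusted p = 0.462). At ZT18 it had 0.798, 0.897, 1.11 and 1.20 RPKM against 1.55, 1.62 and 1.79 RPKM in the 3 aged libraries (0.53 ± 0.23, adjusted p = 0.9999, with 0.255% of all genes called). Every aged value at these times was above every young one, and at ZT22 the ages were level, with a difference of 0.01 ± 0.21. Itgb5 was lower without overlap at ZT2, with 11.0, 11.9, 12.0 and 14.3 RPKM in young and 8.30, 8.58, 9.21 and 10.3 RPKM in aged retinas, and again at ZT18. Its differences of -0.41 ± 0.20 (SE) and -0.40 ± 0.22 did not pass (limma adjusted p = 0.985 and 0.9999, with 0.144% and 0.255% of all genes called). Nor did they pass without the 2 libraries that stood apart (adjusted p = 0.138 and 0.302).

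In all, 11 of 48 pairs did not overlap, the others being Axl at ZT18 and Gas6 and Mfge8 at ZT22. In those others the aged values were the higher, by narrow gaps. The highest young and lowest aged values were 2.501 and 2.508 RPKM for Axl, 101.8 and 101.9 RPKM for Gas6, and 110.2 and 110.3 RPKM for Mfge8. Their differences of 0.17 ± 0.33, 0.06 ± 0.12 and 0.29 ± 0.12 (SE) did not pass (limma adjusted p = 0.9999, 0.937 and 0.926). Among all genes the ages did not overlap for 4.31% at ZT10, 5.51% at ZT2, 6.25% at ZT22, 6.66% at ZT14 and 8.82% at ZT18. Whether the age difference varied over the day was tested by an F test of the interaction, which called 0 of the 8 genes and 0% of all genes (limma; 735 genes and 1 of the 8, Itgb5, had an unadjusted p under 0.05). The same test on recovered reads with limma voom called 0 of the 8. The differences at single times are therefore not shown to differ from one another.

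**Figure D3:**
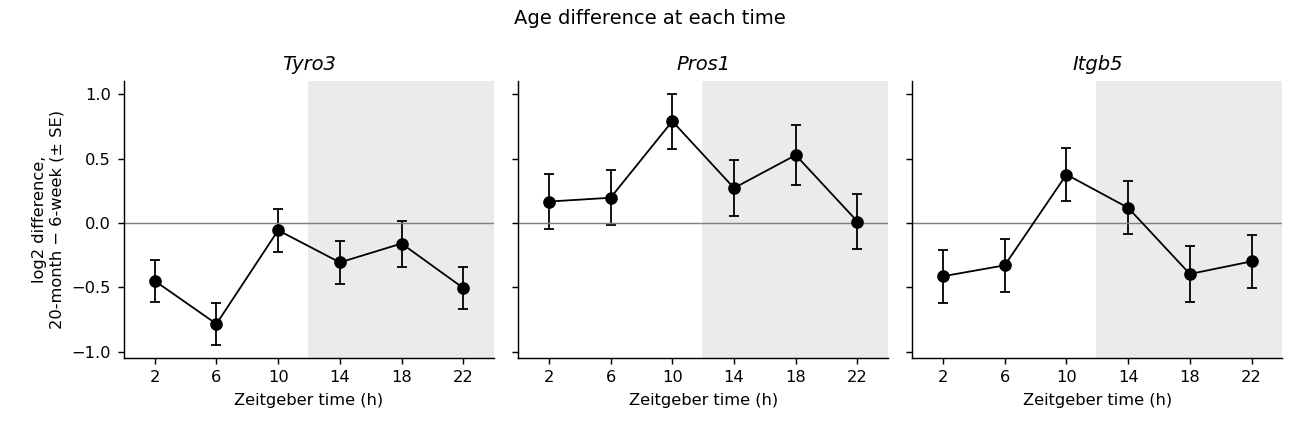
Age difference at each time for Tyro3, Pros1 and Itgb5: x axis, zeitgeber time in h; y axis, log2(RPKM + 0.5) of 20-month minus 6-week retinas; bars, SE; grey, darkness. All libraries are included, so young ZT10 replicate 4 enters all 3 genes at ZT10 and aged ZT6 replicate 3 at ZT6. Tyro3 lies at -0.78 at ZT6, and without the 2 libraries the ZT10 values of 0.79 for Pros1 and 0.38 for Itgb5 become 0.42 and -0.02.

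Daily rhythms were then sought by fitting a 24 h cosine curve to the libraries of each age separately and testing it with an F test. Gas6 was rhythmic in both ages, with its fitted peak late in the night. In young retinas its level was 98.6, 102, 104 and 105 RPKM at ZT2, 82.1, 86.6, 86.9 and 89.5 RPKM at ZT10 and 102, 102, 106 and 106 RPKM at ZT18. Every young value at ZT10 was below every one at ZT2 and ZT18. At ZT22, the time nearest the fitted peak, young libraries had 96.4, 99.8, 102 and 102 RPKM. Their mean was 99.9 RPKM, below the means of 104 RPKM at ZT18 and 102 RPKM at ZT2. The amplitude was 0.12 ± 0.03 (SE) on the log2 scale, or a 1.19-fold change from trough to peak, with the peak at ZT 21.1 ± 0.79 h (SE; limma adjusted p = 0.00386). In aged retinas Gas6 had 78.5, 81.5, 84.0 and 85.7 RPKM at ZT10 and 102, 104, 105 and 106 RPKM at ZT22, again without overlap between these times. The aged amplitude was 0.25 ± 0.07, or 1.41-fold, with the peak at ZT 20.2 ± 1.01 h (adjusted p = 0.0356).

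Gas6 was the 1 of the 8 genes called rhythmic in young retinas, where 19.7% of all genes were. In aged retinas 2 of the 8 genes and 14.4% of all genes were called, and 7.56% were called in both ages. The aged call of Gas6 was lost in 6 of the 23 fits that left out 1 aged library each, with adjusted p up to 0.0746 (ZT6 replicate 1, ZT10 replicate 2, ZT18 replicate 1 and ZT22 replicates 1, 3 and 4). It was also lost with the RPE level as a covariate (amplitude 0.31 ± 0.09, adjusted p = 0.0658) and with no filter on low genes (0.25 ± 0.07, adjusted p = 0.0867), where the amplitude was no smaller. With the RPE covariate 5.92% of all genes were called rhythmic in aged, and with no filter 4.98%. Leaving out the 2 libraries that stood apart, the aged call of Gas6 held. Its amplitude was then 0.18 ± 0.04 (limma adjusted p = 0.00421), where 27.3% of all genes were called. Aged ZT6 replicate 3 had 44.2 RPKM of Gas6 against 75.8 to 89.0 RPKM in the rest of its group. In the RefSeq gene table Gas6 overlaps Tmem255b and Itgav overlaps Dnmt3l-ps1, and the sources used here do not say whether reads were counted by strand.

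The other abundant ligand, Mfge8, had its fitted peaks close to those of Gas6 but did not pass the test. In young retinas Mfge8 had 101, 108, 109 and 119 RPKM at ZT2, 88.0, 88.3, 89.6 and 90.9 RPKM at ZT10 and 111, 114, 118 and 119 RPKM at ZT18. At ZT22, the time nearest the fitted peak, young libraries had 86.9, 90.0, 101 and 110 RPKM. Their mean was 97.0 RPKM, below the means of 115 RPKM at ZT18 and 109 RPKM at ZT2. The young amplitude was 0.14 ± 0.05 (SE), with the fitted peak at ZT 20.97 ± 1.32 h (limma adjusted p = 0.104; 0.0352 without young ZT22 replicate 1 and 0.0487 without replicate 2). The aged amplitude was 0.20 ± 0.06, with the fitted peak at ZT 20.4 ± 1.08 h (adjusted p = 0.0521). Without the 2 libraries that stood apart the aged adjusted p was 0.0489, and it passed too with median-ratio scaling (0.0326) and, at a value just under the threshold, with limma voom, as well as in 4 other fits that left out 1 aged library each (ZT2 replicate 1, ZT6 replicate 4, ZT10 replicate 3 and ZT18 replicate 3). With array weights Mfge8 passed in young (amplitude 0.17 ± 0.04, limma adjusted p = 0.00284) and in aged retinas (0.18 ± 0.04, adjusted p = 0.00336). In that setting 46.1% and 39.3% of all genes were called. Over the 12 group means Mfge8 and Gas6 had a Pearson r of 0.70 (n = 12 groups, which share the libraries and their depth), given as a description.

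Because these ligands had fitted peaks at like hours and Tyro3 passed for age under every alternative run, the 250 bases before their RefSeq start sites are shown, 5′ to 3′ on the gene's strand, with CG dinucleotides in capitals. Coordinates are those of RefSeq on GRCm38.p6, an earlier build than the GRCm39 of the deposited values.
Tyro3 (chr2:119799264-119799513, + strand): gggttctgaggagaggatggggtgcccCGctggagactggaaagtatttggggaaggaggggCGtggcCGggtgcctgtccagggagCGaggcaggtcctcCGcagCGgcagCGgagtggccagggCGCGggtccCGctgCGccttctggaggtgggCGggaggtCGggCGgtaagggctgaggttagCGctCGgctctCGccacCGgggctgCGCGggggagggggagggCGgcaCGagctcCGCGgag
Gas6 (chr8:13494536-13494785, - strand): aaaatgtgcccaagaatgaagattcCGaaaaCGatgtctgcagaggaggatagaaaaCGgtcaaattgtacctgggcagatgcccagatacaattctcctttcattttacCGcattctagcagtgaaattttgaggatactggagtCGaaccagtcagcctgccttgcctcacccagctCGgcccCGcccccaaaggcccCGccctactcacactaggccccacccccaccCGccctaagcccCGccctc
Mfge8 (chr7:79149061-79149310, - strand): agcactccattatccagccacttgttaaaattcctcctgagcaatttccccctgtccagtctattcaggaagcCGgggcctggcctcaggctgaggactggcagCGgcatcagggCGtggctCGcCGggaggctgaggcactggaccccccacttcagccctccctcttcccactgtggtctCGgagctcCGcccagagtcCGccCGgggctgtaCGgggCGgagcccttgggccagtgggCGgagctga
The Tyro3 stretch is dense in CG, with 24 dinucleotides and 73.2% G + C, against 12 and 65.2% for Mfge8, 10 and 54.8% for Gas6, and medians of 6 and 52.4% over all RefSeq windows. Windows of 300 bases (250 before to 50 after the start) were searched on both strands for the E-box CACGTG, the letters bound by clock proteins, and for the nuclear receptor motif AGGTCA. Neither was found in the windows of the 8 genes, while 7.2% and 16.3% of 32851 windows held them. This says only that these letters are not in these windows.

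Pros1 was the other gene called rhythmic in aged retinas, with an earlier peak. Aged libraries had 1.08, 1.54, 2.07 and 2.17 RPKM at ZT2, 2.00, 2.13, 2.41 and 2.49 RPKM at ZT10 and 0.890, 1.20, 1.21 and 1.93 RPKM at ZT22. The ZT10 values all lay above the ZT22 values. The aged amplitude was 0.25 ± 0.07 (SE), or 1.42-fold, with the peak at ZT 9.25 ± 1.08 h (limma adjusted p = 0.0457). This call was close to its threshold: it was lost in 15 of the 23 fits that left out 1 aged library each, with adjusted p from 0.0501 without ZT14 replicate 1 to 0.121 without ZT22 replicate 3. The others were ZT2 replicate 4, ZT6 replicates 1, 2 and 4, ZT10 replicates 1 to 4, ZT14 replicate 4, ZT18 replicates 1 and 2, and ZT22 replicates 1 and 4. It was also lost with median-ratio scaling (amplitude 0.20 ± 0.06, adjusted p = 0.0712), quantile normalization (0.15 ± 0.05, adjusted p = 0.176), the RPE level as a covariate (0.27 ± 0.09, adjusted p = 0.111) and no filter (0.25 ± 0.07, adjusted p = 0.096). Of all genes 12.3%, 10.5%, 5.92% and 4.98% were called rhythmic in aged in these settings, in the order given. In young retinas Pros1 did not pass (amplitude 0.17 ± 0.10, limma adjusted p = 0.496). Without young ZT10 replicate 4 it did, with an amplitude of 0.22 ± 0.06 and a peak at ZT 6.71 (adjusted p = 0.011).

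Young ZT10 replicate 4 also decided the young call of Tyro3. With all libraries Tyro3 had an amplitude of 0.15 ± 0.07 (SE) in young retinas (limma adjusted p = 0.25), and without that library 0.17 ± 0.04 with a peak at ZT 5.92 (adjusted p = 0.00601). In aged retinas the Tyro3 amplitude was 0.10 ± 0.07 with the fitted peak at ZT 13.0 (adjusted p = 0.506). Without the 2 libraries that stood apart it was 0.12 ± 0.04 with the fitted peak at ZT 9.87 (adjusted p = 0.0938). With array weights aged Tyro3 passed (adjusted p = 0.0271), where 39.3% of all genes were called. Itgb5 had fitted peaks that lay far apart in the ages, at ZT 21.3 ± 1.72 h in young (amplitude 0.22 ± 0.10, adjusted p = 0.269) and at ZT 13.9 ± 1.14 h in aged retinas (0.21 ± 0.06, adjusted p = 0.0551), and neither passed. The young Itgb5 amplitude without the 2 libraries that stood apart was 0.09 ± 0.05 (adjusted p = 0.255), with the fitted peak at ZT 20.3. The aged Itgb5 call was gained in 5 of 23 fits that left out 1 aged library each (ZT2 replicate 2, ZT6 replicate 3, ZT18 replicate 3 and ZT22 replicates 1 and 2), with adjusted p from 0.0225, and with limma voom (0.0477). Without the 2 libraries that stood apart 3 of the 8 genes were called in young (Gas6, Pros1 and Tyro3) and 4 in aged retinas (Gas6, Pros1, Mfge8 and Itgb5), where 34.0% and 27.3% of all genes were.

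Mertk, Axl and Itgav were not called rhythmic in either age with all libraries and the settings stated above. Their amplitudes were 0.16 ± 0.08, 0.14 ± 0.13 and 0.15 ± 0.16 (SE) in young and 0.10 ± 0.08, 0.23 ± 0.11 and 0.24 ± 0.12 in aged retinas (limma adjusted p from 0.28 to 0.82). Their young amplitudes without the 2 libraries that stood apart were 0.13 ± 0.05, 0.08 ± 0.05 and 0.11 ± 0.07 (adjusted p = 0.114, 0.403 and 0.442). Young Mertk passed with quantile normalization, with an amplitude of 0.23 ± 0.06 (adjusted p = 0.0402), and had 0.05 ± 0.09 with the RPE level as a covariate (adjusted p = 0.923). Over all 8 genes the median amplitude was 0.15 in young and 0.22 in aged retinas, against 0.13 and 0.15 over all genes. A test of whether the rhythm differed between ages called 0 of the 8 genes and 0.00653% of all genes (limma; 1187 genes had an unadjusted p under 0.05). Among the 8 the smallest unadjusted p was that of Itgb5, at 0.0169 (adjusted p = 0.606). The call of Pros1 in aged and not in young retinas is therefore not shown to be a difference between the ages.

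**Figure D4:**
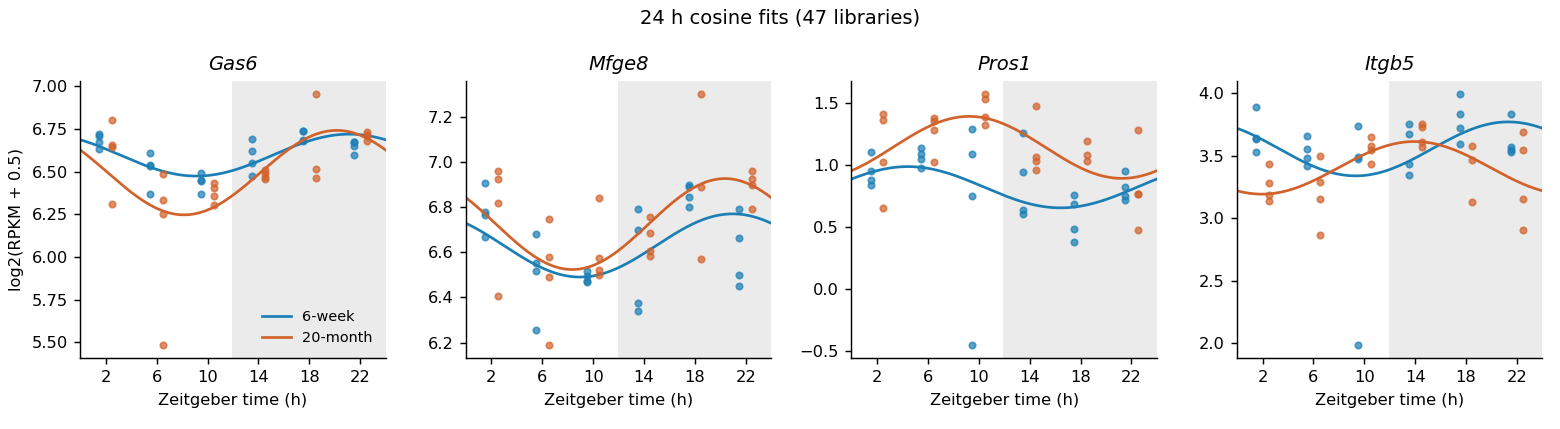
Fitted 24 h cosine curves of Gas6, Mfge8, Pros1 and Itgb5: x axis, zeitgeber time in h; y axis, log2(RPKM + 0.5); points, all 47 libraries; grey, darkness. The Gas6 curves peak at ZT 21.1 in young and ZT 20.2 in aged retinas, and the lowest point of Pros1 and of Itgb5 is young ZT10 replicate 4.

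ZT2 is the sampled time nearest to the morning burst of outer segment uptake, so each gene's ZT2 mean was set against the mean of the other times of the same age. None of the 8 genes passed in young retinas, where 0.255% of all genes did, or in aged retinas, where 0.503% did (limma; 0 of the 8 had an unadjusted p under 0.05 in either age, against 909 and 1247 of all genes). With array weights, which give less weight to libraries far from the fit, 4 of the 8 and 39.1% of all genes were called in aged retinas, against 0 of the 8 and 9.85% in young. Mertk had 0.448, 0.530, 0.592 and 0.596 RPKM at ZT2 in young retinas, the lowest group mean of that age, and its difference was -0.18 ± 0.16 (SE). Mertk at aged ZT2 had 0.475, 0.549, 0.587 and 0.915 RPKM. These values overlapped those of the other times.

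Levels of the 8 genes were also set beside markers of cell types that a dissected retina may hold, after subtracting each group's mean, so that differences between group means do not enter. Of 32 pairs of a gene and a marker list, 23 were correlated over the 47 libraries (Pearson r, permutation within groups with 100000 resamples, two-sided, Benjamini-Hochberg adjusted p under 0.05 over the 32 pairs), 21 by Spearman's rho, 19 without the 2 libraries that stood apart, 16 without the 2 farthest from the median marker level and 15 with median-ratio scaling. Correlations of this kind were common among all genes: 18 of the 32 pairs had an absolute r of at least 0.5, a value chosen after the data were seen, and so had 32.4% of 61247 pairs of any tested gene and a list. In the 45 libraries without those that stood apart it was 8 of the 32 and 17.7% of all pairs. With the endothelial list alone 48.7% of all genes reached that value, and with the Müller glia list 48.6%. Itgav, Axl, Pros1 and Mertk varied with Müller glia and endothelial markers. Itgav with the endothelial level had r = 0.93 (rho = 0.87, adjusted permutation p = 0.000107 for both) and r = 0.85 without the 2 libraries farthest from the median marker level. Axl with the endothelial level had r = 0.90 (rho = 0.83, adjusted permutation p = 0.000107 for both) and r = 0.79 without those farthest. All 4 genes kept a positive r with both lists without the 2 libraries that stood apart.

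Mertk, the lowest of the 8, varied most with the Müller glia level, with r = 0.79 (rho = 0.69, adjusted permutation p = 0.000183 for both) and r = 0.66 without the 2 farthest libraries. Its r with the RPE level was 0.44 (rho = 0.47, adjusted permutation p = 0.00581 and 0.00832) and 0.40 without the 2 farthest. Pros1 with the Müller glia level had r = 0.85 (rho = 0.72, adjusted permutation p = 0.000107 and 0.000128) and 0.63 without the 2 farthest, and Itgb5 had r = 0.86 (rho = 0.67, adjusted permutation p = 0.000107 and 0.00028) and 0.58. The Müller glia sum ran from 114 to 1431 RPKM in young and from 679 to 1441 RPKM in aged libraries, and 0 of its 12 genes were called for age.

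The abundant ligands had no positive correlation that passed. Mfge8 ran against the endothelial level, with r = -0.41 (rho = -0.61, adjusted permutation p = 0.0006 and 0.000128) and r = -0.62 without the 2 farthest libraries. With the Müller glia level Mfge8 had r = -0.17 (rho = -0.35, adjusted permutation p = 0.0495 and 0.0402). Without the 2 libraries that stood apart this r was -0.47 (adjusted permutation p = 0.0236). Gas6 had no pair that passed, with r from -0.04 to 0.36 (adjusted permutation p from 0.142 to 0.9). Without the 2 libraries that stood apart, Gas6 passed with the endothelial level (r = -0.50, adjusted permutation p = 0.00356) and the Müller glia level (r = -0.43, adjusted permutation p = 0.0327). Tyro3 had r = 0.73 with the microglial level (rho = 0.35, adjusted permutation p = 0.0462 and 0.0781), but this rested on 2 libraries, since without the farthest it was 0.0028. Tyro3 with the endothelial level had r = 0.66 (rho = 0.56, adjusted permutation p = 0.00297 and 0.00467), 0.40 without the 2 farthest and 0.39 without the 2 libraries that stood apart (adjusted permutation p = 0.0497). The summed microglial level had medians of 31.8 RPKM in young and 38.7 RPKM in aged libraries, with 1 of 9 genes higher with age, while the endothelial sum had medians of 19.0 and 18.2 RPKM. Tyrobp, P2ry12, Tmem119, Cldn5 and Egfl7 of these lists were listed at 0 in at least 1 library. The part of these other lists in the age and rhythm results was not tested.

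**Figure D5:**
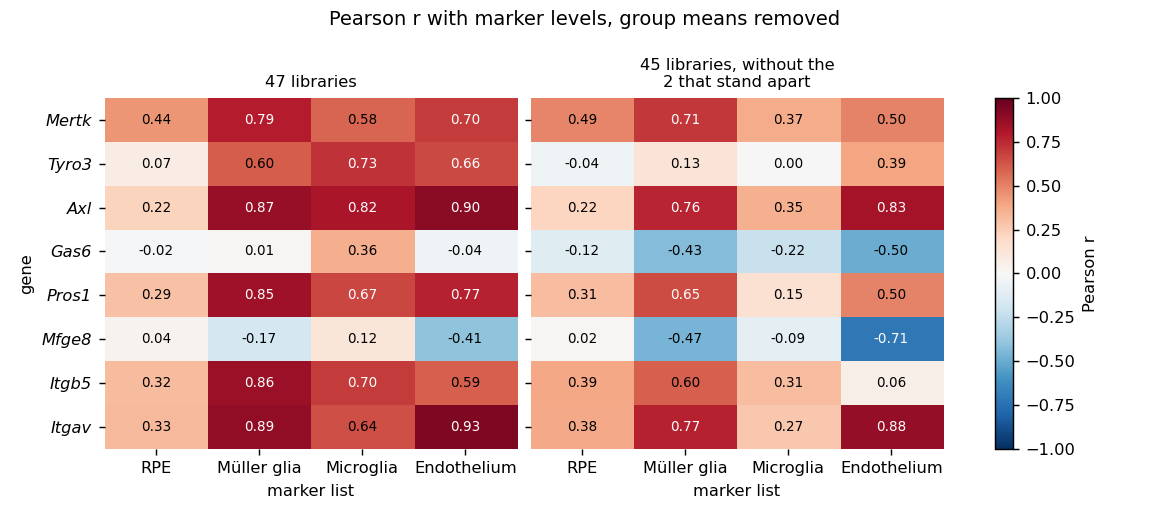
Pearson r between each gene (y axis) and the mean log2 level of 4 marker lists (x axis) with group means removed, over 47 libraries (left) and over the 45 without the 2 that stood apart (right); colour, r from -1 to 1. Itgav and Axl keep r of 0.88 and 0.83 with the endothelial level in the right panel, and Tyro3 with the microglial level goes from 0.73 to 0.00.

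Other genes of outer segment uptake were counted on a list of 63, of which 58 were tested: 0 were higher and 2 lower with age, and 56 did not pass (limma adjusted p under 0.05, against 4.24% of all genes). The median age difference of the list was -0.03 on the log2 scale, against -0.02 over all genes. Gulp1, an adaptor protein of engulfment receptors, had a mean of 6.70 RPKM (SD 0.855) in the 24 young libraries and of 4.54 RPKM (SD 1.29) in the 23 aged, and fell by 0.55 ± 0.07 (SE; limma adjusted p = 1.58e-07). Myo7a, the myosin that moves phagosomes and pigment granules in the RPE, had 3.52 ± 0.327 RPKM (SD) in young and 2.82 ± 0.335 RPKM in aged libraries and fell by 0.28 ± 0.04 (adjusted p = 3.79e-07). None of the 13 phagosome handling genes, the 7 genes of phosphatidylserine exposure and the 3 integrin partners tested passed for age. Without the 2 libraries that stood apart 9 of the 58 passed for age, against 16.5% of all genes.

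Rhythms on this list numbered 4 in young (Jmjd6, Itgb8, Arf6 and Mreg) and 6 in aged retinas (Jmjd6, Rhoa, Mreg, Timp3, Atg7 and Lamp1), with 2 in both. Those are shares of 58 to be read against the 19.7% and 14.4% of all genes. Mreg, melanoregulin, which acts in phagosome maturation, had 30.9 ± 4.02 RPKM in young and 30.2 ± 5.84 RPKM in aged retinas, with fitted peaks at ZT 17.4 in both (limma adjusted p = 0.000559 and 0.00283). Jmjd6, once described as a phosphatidylserine receptor and now known as a nuclear oxygenase, peaked at ZT 14.9 and ZT 17.1 (adjusted p = 5.57e-05 and 0.00519). Without the 2 libraries that stood apart 10 of the 58 were rhythmic in young and 11 in aged retinas, against 34.0% and 27.3% of all genes.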

How the data were processed

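Retinas were dissected under dim red light and RNA was polyA-selected, per the labels' protocols. The authors deposited RPKM values, 1 column per library. Tools listed in the submitters' processing notes are HISAT2 2.2.1, Subread 2.0.6 and FastQC 0.23.4, with the build GRCm39. Neither settings nor strand use is stated there. Of the deposited columns, 1 matched no sample and was not used.

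Symbols came from GENCODE M21, an earlier build, used for names and exon lengths only (51884 identifiers matched). Low values were whole multiples of 1 read, so reads were recovered: 37323 of 37323 genes above 0 came out whole within 0.01, of which 4556 at a length searched to make them whole. Mates were counted singly.

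With limma 3.58.1 (R 4.3.3, trended eBayes), log2(RPKM + 0.5) values were tested, with Benjamini-Hochberg adjustment over 15321 genes, called at an adjusted p under 0.05. Age was fitted with time as a factor, single times and ZT2 from 12 group means, and rhythm as a 24 h cosinor in each age. The scripts were tested on simulated data. The labels give 1 mouse per library. Whether replicate numbers pair libraries was not settled: of 253 same-number pairs 90 correlated over 0.1 (median r 0.03), with no chance value computed. The 8 genes and all lists were chosen with earlier results of these data known. All 8 genes are named, and of the uptake list those that passed, up to 10 per test; for each gene the 3 tested genes with the highest r over group means are named, except 1 that is not reported here. Alternatives were another pseudocount, filter, scaling, replicate block, RPE covariate, array weights, limma voom on recovered reads, and libraries left out. Promoters are from RefSeq (GRCm38.p6); all 8 matched.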

Additional observations from a re-analysis of the deposited data

Results flagged for a closer look

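In 88 sets of 1 gene in 1 group of 4 libraries, the library farthest from the rest was screened with Dixon's test at a critical value of 0.829, which chance passes in about 1 in 20 sets, and 3 passed. Axl in young ZT10 replicate 4 had 0.204 RPKM against 2.55, 2.83 and 2.91 RPKM in the rest of its group. Itgav in the same library had 0.0805 RPKM against 3.14, 3.41 and 3.54 RPKM. This library stood apart over all genes, and Axl and Itgav in it had the lowest values of all 47 libraries. Itgb5 in young ZT22 replicate 3 had 13.8 RPKM against 11.0, 11.2 and 11.4 RPKM, a value within the 9.64 to 15.4 RPKM of the other young libraries outside young ZT10 replicate 4.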

How the results depend on the processing

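Tyro3 kept its fall with age in 11 of 11 alternative settings and in all 47 fits that left out 1 library each, from -0.42 to -0.34 and adjusted p at most 0.00123. Of the 8 genes 2 were called for age, and this was 1 with a pseudocount of 0.1, with no filter and with the RPE covariate, and 4 with array weights. Of all genes 4.05%, 1.63%, 3.02% and 15.6% were called for age in these settings, in the order given. With array weights the 4 genes were Tyro3, Pros1, Gas6 and Itgb5, the last at -0.19 ± 0.06 (SE; limma adjusted p = 0.0223). Pairs of a gene and a time were 1, then 2 with quantile normalization, 2 with limma voom, 3 without the 2 libraries that stood apart and 11 with array weights. Shares of all genes at single times were not computed with quantile normalization or limma voom. With array weights 21.8% of all genes were called at ZT2 and 20.6% at ZT18, against 0.144% and 0.255% without them. At the other times array weights called 1.45% to 4.24% of all genes. Array weights also gave 1 gene with an age by time interaction (1597 of all genes, against 0) and 4 genes at aged ZT2, against 0, where 39.1% of all genes were called. Rhythmic genes in young were 1, then 2 with quantile normalization, 3 without the 2 libraries and 4 with array weights. Of all genes 16.8%, 34.0% and 46.1% were rhythmic in young in these settings, in the order given. In aged, rhythmic genes of the 8 were 2, then 0 with no filter, 0 with the RPE covariate and 1 with quantile normalization. They were 4 without the 2 libraries, 4 with limma voom and 5 with array weights. Of all genes 4.98%, 5.92%, 10.5%, 27.3%, 14.6% and 39.3% were rhythmic in aged in these settings, in the order given.

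On the uptake list, age calls went from 2 to 4 with quantile normalization, 9 without the 2 libraries and 11 with array weights. Young rhythms went from 4 to 7 with median-ratio scaling, 7 with quantile normalization, 10 without the 2 libraries and 24 with array weights, and aged rhythms from 6 to 11 without the 2 libraries and 22 with array weights. Of all genes, quantile normalization called 4.63% for age and 16.8% rhythmic in young, and median-ratio scaling 16.0% rhythmic in young. Correlated pairs went from 23 to 15 with median-ratio scaling. Array weights also raised the calls over all genes, from 649 to 2397 for age, from 3024 to 7069 for rhythm in young and from 2207 to 6023 in aged, as leaving out the 2 libraries did (2533, 5207 and 4188). Without a filter 1858 of all genes were rhythmic in aged, and with the RPE covariate 1663 in young and 907 in aged.

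Leaving out 1 library at a time gave 1 to 3 genes for age, 0 to 2 pairs at single times, 1 to 3 rhythmic in young and 0 to 4 in aged, and on the uptake list 2 to 7, 3 to 10 and 5 to 11. Over all genes these fits called 3.71% to 9.91% for age, 17.0% to 34.0% rhythmic in young and 11.3% to 27.3% in aged. The highest shares for age and young rhythm came without young ZT10 replicate 4. The highest share for aged rhythm came without aged ZT6 replicate 3. Of signs that turned, the Mertk age difference of 0.07 became -0.0041 with the RPE covariate. The Axl age difference of -0.01 became 0.00489 with a pseudocount of 0.1, 0.00483 with median-ratio scaling, 0.00829 with quantile normalization, 0.0057 with array weights and 0.0296 with limma voom, and ran from -0.113 to 0.0379 with 1 library left out. The Itgav age difference of -0.02 became 0.0104 with a pseudocount of 0.1, 0.0052 with quantile normalization and 0.0671 with limma voom, and ran from -0.138 to 0.0155. The causes were not tested. A filter of 1 RPKM in 24 libraries left Mertk untested.

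Samples share replicate numbers across groups, and 17 of 47 libraries correlated best with their own number, a count that was not set against chance. With the number as a replicate block 2 of the 8 genes were called for age, 1 rhythmic in young and 2 in aged, and 697, 2944 and 2386 of all genes. Low reads limit Mertk, and values at single times rest on 3 or 4 libraries per age.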

Other observations

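For each of the 8 genes the tested genes with the most similar pattern over the 12 group means were found by Pearson's r, as a description over points that share libraries and depth. The 2 libraries that stood apart entered these means, and r without them was not computed. Gas6 was followed most closely by Mllt6 (r = 0.97), Sema3f (r = 0.97), which encodes a secreted guidance cue, and Ift122 (r = 0.95), a component of ciliary transport. Mfge8 was followed by Nono (r = 0.96), Bsg (r = 0.94), which encodes basigin, and Tcn2 (r = 0.94). Tyro3 was followed by Cdk16 (r = 0.96) and Dpp3 (r = 0.94). Pros1 was followed by Smg8 (r = 0.95), C4b (r = 0.94), a complement component, and Dbt (r = 0.92).

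Among the genes at lower levels, Mertk was followed by Fam198a (r = 0.94), Phf13 (r = 0.92) and Bcl6 (r = 0.92), and Axl by Adra2c, Osbpl10 and Rab31 (each r = 0.95). Itgb5 was followed by Ccdc136 (r = 0.98), Pcsk6 and Lrtm1 (both r = 0.95), and Itgav by Fads3 (r = 0.95), Cdk17 and Gpr75 (both r = 0.94). None of the 8 genes was among the 3 most alike of another. Among the 8, the highest r over group means was that of Axl with Itgav (0.78), followed by Gas6 with Mfge8 (0.70), and the lowest was that of Gas6 with Pros1 (-0.59). Axl and Itgav both had their lowest value of all libraries in young ZT10 replicate 4, which entered these means. Itgb5 and Itgav, whose products form 1 receptor, had r = 0.58.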
